A study of Mus musculus with 38 samples.

Results

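Within periportal regions of DDC-fed Trail.mye livers, the PanCK-positive and the IBA1-positive segment of the same region of interest (ROI) were compared over the whole panel. The members are the 10 segments of ROIs 032 to 036, which are 5 PanCK segments and 5 IBA1 segments paired by ROI number, of 38 segments analysed in the series. Trail.mye denotes C57BL/6 mice in which the floxed gene for TRAIL is deleted by Cre recombinase expressed from the Lyz2 locus, so that the deletion covers macrophages, monocytes and neutrophils and not macrophages alone. DDC (3,5-diethoxycarbonyl-1,4-dihydrocollidine) was given in 3 rounds of 5 days, separated by 2 rounds of 3 days on chow, and the livers were taken on day 22. Animal age is not among the labels. Control diet-fed Trail.mye mice, of the same genotype on the same schedule with a control diet in place of DDC, and DDC-fed WT mice, which carry no deletion, each gave 4 periportal ROIs with both segments. Control diet-fed WT mice gave ROIs 003 and 005 with both segments, which enter only the fits of all paired ROIs. The labels name neither the mouse nor the section of any ROI, so that ROIs can share an animal and every p-value below is too small to stand for mice.

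DDC feeding makes porphyrin plugs in small bile ducts and is a standard model of cholestasis. The response around the portal tract, the ductular reaction, is made of cholangiocyte-like epithelial cells that express keratins and lie among macrophages and matrix-forming fibroblasts. PanCK antibodies stain keratins of the biliary epithelium, and IBA1, the product of Aif1, marks macrophages. Each segment was cut along such staining in tissue sections, so that its counts also hold RNA of cells that touch or overlap the stained ones, and fewer cells of a type cannot be told apart from less RNA per cell.

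The values given for single segments are Q3-normalized counts, in which every segment is scaled to the same 75th percentile of 10.5. A log2 fold change is PanCK over IBA1 with its standard error (SE), from a count model with the ROI as a block, and a gene was called at an adjusted p under 0.05 over all genes tested. The test called 1438 of 10547 genes (13.6%). PanCK segments had the higher level for 690 of these (6.54% of all) and the lower level for 748 (7.09%). Of the called genes, 1277 had the same sign in 5 of 5 ROIs. The 5 PanCK and the 5 IBA1 values did not overlap for 816 genes (7.74%). The median log2 fold change over all genes was 0.0065.

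The segments were first set against the markers of the cells they were cut for. The keratin genes Krt7, Krt8, Krt18 and Krt19 and Aif1 belong to the gate, so that their difference checks the labels and is no finding. Krt19, a keratin of bile duct epithelium, had 66.7, 45.5, 51.6, 36.9 and 50 in the PanCK segments of ROIs 032 to 036, against 8.65, 5.66, 5.25, 8.72 and 3.00 in the IBA1 segments. Krt7 (log2 fold change 1.85, SE 0.23), Krt8 (1.798, SE 0.13) and Krt18 (1.52, SE 0.13) were also higher in PanCK segments without overlap. Aif1 itself separated the segments poorly. It had 7.27, 11.9, 7.76, 7.35 and 5.88 in PanCK against 13.0, 9.70, 13.8, 11.7 and 16.5 in IBA1 segments, a log2 fold change of -0.72 (SE 0.21, adjusted p = 0.0101), and in ROI 033 the PanCK segment was the higher one. Without ROI 036 the Aif1 difference was not called (log2 fold change -0.58, adjusted p = 0.0994).

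All 12 cholangiocyte markers were higher in PanCK segments, with a median log2 fold change of 1.996, and their summed level was 576 to 1687 there against 135 to 242 in IBA1 segments. Krt19 and Krt7 belong to the gate but are part of this count, median and sum. Of 12 macrophage markers 11, among them the gate gene Aif1, were lower in PanCK segments, and the median was -1.78. The exception was Cd14, the lipopolysaccharide co-receptor, named here after its values were seen. It had 69.9, 37.1, 42.0, 26.3 and 39.9 in PanCK and 9.89, 31.5, 18.4, 14.9 and 4.50 in IBA1 segments (log2 fold change 1.39, SE 0.19, adjusted p = 1.89e-09), so that it was higher in the segment cut for epithelium. Hepatocyte markers were abundant in both segments, with a sum of 1041 to 3543 in PanCK and 1221 to 3708 in IBA1 segments, and of 11 measured only Cyp2e1 and Ass1 were called, both lower in PanCK. Ass1 lost its call without ROI 032 (adjusted p = 0.054), ROI 033 (0.188) or ROI 036 (0.104). Markers of fibroblasts and stellate cells summed to 819 to 1711 in IBA1 segments and to 187 to 442 in PanCK segments, and 9 of 12 were lower in PanCK. The macrophage markers summed to 541 to 1208 in IBA1 and to 169 to 269 in PanCK segments, so that markers of both cell types moved with the segment, and the part of either in a gene that both cells make was not tested.

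**Figure D1:**
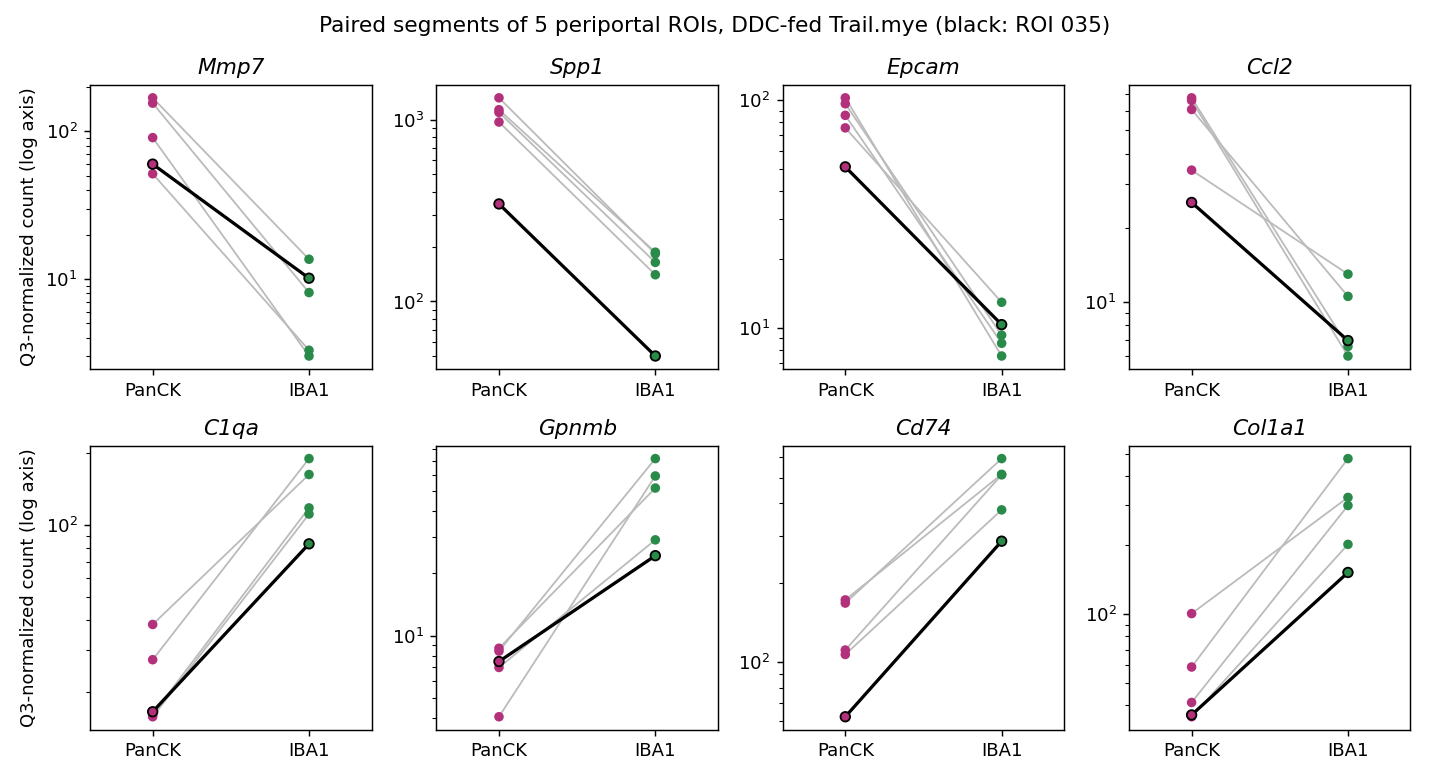
Q3-normalized counts (log axis) of 8 genes in the PanCK (magenta) and IBA1 (green) segment of each ROI, with a line joining the segments of an ROI and ROI 035 in black. All 5 lines slope the same way in every panel, and for Mmp7 and Gpnmb the line of ROI 035 is the flattest of the 5.

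The genes most enriched in PanCK segments were epithelial. Mmp7, a secreted protease of ductular epithelium, had the highest log2 fold change among genes whose segments did not overlap (3.51, SE 0.18, adjusted p = 1.16e-31). Its PanCK values were 169, 156, 51.6, 60.01 and 90.8, and its IBA1 values 13.6, 8.08, 3.28, 10.1 and 3.00. All 5 ROIs ran the same way, with the highest PanCK levels in ROIs 032 and 033 and the lowest in ROI 034. Cdh1 (E-cadherin, the adherens junction cadherin), Epcam (an epithelial adhesion molecule) and Cd24a (a surface sialoglycoprotein) followed at 2.94 (SE 0.16), 2.94 (SE 0.17) and 2.93 (SE 0.17). Next came the tetraspanin Tspan8 (2.90), the scavenger receptor family gene Scara3 (2.83), Krt19 (2.78), Spp1 (2.75), the desmosomal cadherin Dsg2 (2.73) and the growth factor receptor Fgfr3 (2.70).

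Spp1 encodes osteopontin, a secreted phosphoprotein of both cholangiocytes and some macrophages. It was the most abundant of these, with 1318, 1134, 1096, 344 and 970 in PanCK and 183, 187, 164, 50.1 and 140 in IBA1 segments. Both segments of ROI 035 were far below the others, yet the ratio within that ROI (log2 ratio 2.78) was close to the fitted 2.75 (SE 0.11, adjusted p = 1.35e-39).

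At the other end, the 10 lowest log2 fold changes among genes whose segments did not overlap were those of macrophage genes, collagens and Gpx3. Igkc and Igha, described below, were lower still but overlapped. Gpx3, the secreted glutathione peroxidase, had 5.25, 14.0, 7.76, 7.75 and 3.36 in PanCK and 44.5, 36.4, 46.0, 39.2 and 60.02 in IBA1 segments (-2.60, SE 0.19, adjusted p = 4.57e-22). The chains of complement C1q, which macrophages make in most tissues, were lower in PanCK by nearly the same log2 fold change, -2.53 for C1qa (SE 0.14), -2.51 for C1qb (SE 0.13) and -2.41 for C1qc (SE 0.14). C1qa was at 15.8, 16.1, 38.4, 16.5 and 27.3 in PanCK against 111, 118, 163, 83.4 and 190 in IBA1 segments. Gpnmb, a glycoprotein of lipid-laden macrophages, had a log2 fold change of -2.55 (SE 0.19), the cysteine protease Ctss -2.42 (SE 0.13), the pore-forming Mpeg1 -2.36 (SE 0.15) and the tetraspan Ms4a4a -2.30 (SE 0.21). Col1a1 (-2.39, SE 0.13) and Col3a1 (-2.25, SE 0.12), chains of the fibrillar collagens, stood beside them. Col1a1 was at 41.2, 35.7, 100.5, 36.4 and 58.8 in PanCK and at 297, 201, 322, 152 and 476 in IBA1 segments, with no overlap.

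Upstream stretches of 3 of these genes are shown because they carry short motifs of factors known from the cells at each end. PU.1, the ETS factor of myeloid cells, was searched as GAGGAAGT and AP-1 as TGANTCA, on both strands, in RefSeq promoters of GRCm38.p6 that run from 250 bases before to 50 after a transcript start. Promoters were found for 8428 of the 10547 genes. The motif is in capitals in each line, which reads 5′ to 3′ on the strand of the gene.
C1qc, chr4:136893076-136893135, minus strand: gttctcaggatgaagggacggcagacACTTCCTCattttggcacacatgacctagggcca
Spp1, chr5:104434972-104435031, plus strand: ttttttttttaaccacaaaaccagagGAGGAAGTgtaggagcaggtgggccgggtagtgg
Mmp7, chr9:7692000-7692059, plus strand: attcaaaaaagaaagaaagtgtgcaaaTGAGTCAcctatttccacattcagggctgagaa
The C1qc and Spp1 lines hold the PU.1 letters, in C1qc as their reverse complement, and the Mmp7 line the AP-1 letters. Among the 10 highest and 10 lowest genes, no promoter was found for Cdh1, Cd24a, Scara3, Krt19, Dsg2, C1qa and Col1a1, which were not searched. Among the rest, the PU.1 letters were in promoters of Ctss and C1qc at the low end. At the high end they were in Spp1 and, outside the stretch shown, Mmp7. The AP-1 letters were in Mmp7 and in Gpnmb at the low end. The PU.1 letters were in 6.59% of the 728 promoters of genes lower in PanCK, in 1.94% of the 671 promoters of genes higher in PanCK and in 3.13% of all 10798 promoters of tested genes. The AP-1 letters were in 9.99% of the promoters of genes higher in PanCK, in 6.73% of those lower and in 5.73% of all. AACCNGTT, for grainyhead factors of epithelia, was in 2.38% of higher, 1.65% of lower and 1.89% of all promoters, and GGAATG, for TEAD factors, in 15.8%, 14.4% and 12.4%. Of the genes searched among these 20, the grainyhead letters were in Gpx3 and the TEAD letters in Col3a1, both at the low end. A match is a description of letters and not of binding.

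**Figure D2:**
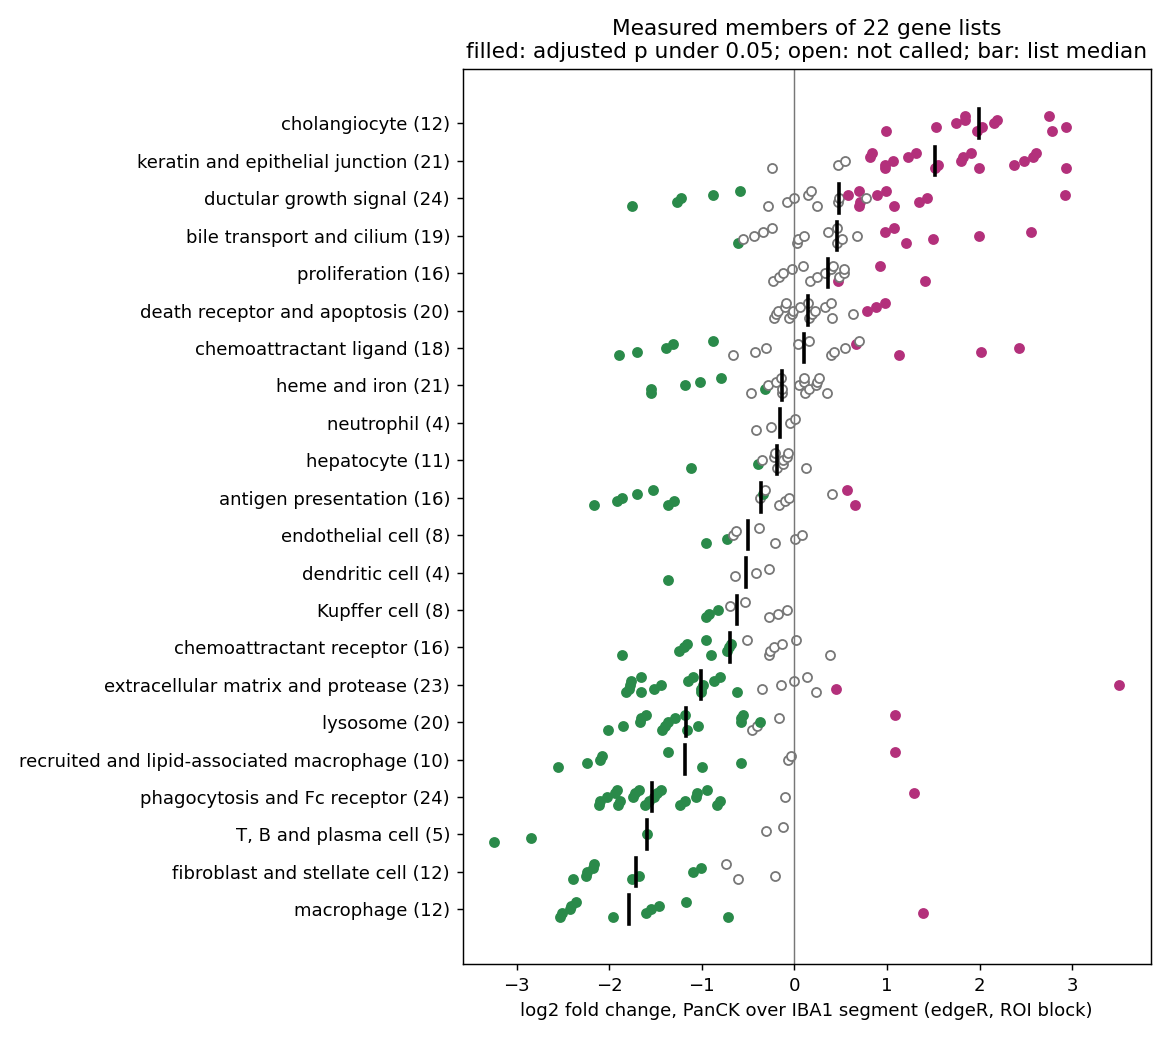
Log2 fold change, PanCK over IBA1, of every measured member of 22 gene lists, ordered by list median (bar); the number of measured members is in parentheses. Filled points were called, magenta higher and green lower in PanCK, and open points were not. The cholangiocyte and keratin and junction lists lie to the right, and the macrophage, fibroblast and phagocytosis lists to the left.

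Junction genes moved with the cholangiocyte markers. Of 21 measured genes of keratins and epithelial junctions 18 were higher in PanCK segments, none was lower, and the median was 1.52. The keratins Krt8 and Krt18, which belong to the gate, are part of this count, as is a further keratin, Krt23. The claudins, which form tight junctions, led with Cdh1. Cldn2 (log2 fold change 2.61, SE 0.22) had 33.9, 26.6, 35.6, 18.8 and 29.8 in PanCK and 4.33, 4.04, 1.97, 5.35 and 3.75 in IBA1 segments. Cldn4 (2.57, SE 0.22) and Cldn3 (2.48, SE 0.17) did not overlap either. Itga6, Pkp2 and Perp were not called.

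Chemoattractant ligands were split between the segments. Of 18 measured 4 were higher in PanCK, 5 were lower, and the median was 0.10. Ccl2, the main ligand for recruited monocytes, was the highest at 2.43 (SE 0.19, adjusted p = 1.39e-20), with 60.6, 34.3, 67.6, 25.3 and 66.0 in PanCK against 10.5, 12.9, 6.57, 6.94 and 6.002 in IBA1 segments. Cxcl5, a neutrophil attractant, had 47.3, 32.9, 25.1, 12.2 and 19.8 in PanCK and 4.94, 7.27, 1.97, 7.93 and 3.00 in IBA1 segments (2.01, SE 0.23, adjusted p = 5.97e-12). For both genes the smallest PanCK value was that of ROI 035.

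Cxcl1, another neutrophil attractant, was higher in PanCK in each ROI but with wide spread, at 27.9, 16.8, 7.31, 7.22 and 3.78 against 8.03, 5.66, 0.66, 5.95 and 3.00, and the groups overlapped (1.13, SE 0.25, adjusted p = 0.000292). The IBA1 value in ROI 034 was 1 count, the lowest value deposited. Without ROI 032, the highest PanCK segment, Cxcl1 was not called (0.85, adjusted p = 0.0667). Cxcl16, a membrane-bound ligand, was also higher in PanCK (0.67, SE 0.15, adjusted p = 0.000458). On the IBA1 side stood the stromal ligand Cxcl12 (-1.90, SE 0.15), the myeloid ligands Ccl6 (-1.70, SE 0.21) and Ccl9 (-1.31, SE 0.22), Cxcl14 (-1.39, SE 0.22) and the T cell attractant Ccl5 (-0.87, SE 0.22). Cxcl16, Ccl9, Cxcl14 and Ccl5 are named after their values were seen, to complete the list.

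Further attractants did not pass the threshold over 5 ROIs. Tnf, a cytokine of activated macrophages, had 8.48, 4.90, 9.59, 8.01 and 5.46 in PanCK and 6.18, 4.85, 4.60, 5.15 and 1.501 in IBA1 segments (0.70, SE 0.26, adjusted p = 0.0582). It was higher in PanCK in 5 of 5 ROIs and was called without ROI 033 (adjusted p = 0.0478). Cx3cl1, the membrane-bound ligand of CX3CR1, had a log2 fold change of 0.04 (SE 0.21). S100a8, a calcium-binding protein of neutrophils that also draws them in, had -0.26 (SE 0.20), and none of the 4 measured neutrophil markers was called.

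No chemoattractant receptor was higher in PanCK segments, and 9 of 16 were lower, with a median of -0.69. The anaphylatoxin receptor C3ar1 had 6.87, 7.00, 5.48, 8.01 and 6.72 in PanCK and 17.9, 22.6, 36.8, 19.8 and 42.0 in IBA1 segments (-1.87, SE 0.20, adjusted p = 1.93e-13). Csf2ra, a chain of the GM-CSF receptor (-1.24, SE 0.21), the TNF receptor Tnfrsf1b (-1.19, SE 0.18) and Il6ra (-1.16, SE 0.24) followed.

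Genes of phagocytosis and Fc receptors lay mostly on the IBA1 side, with 22 of 24 lower in PanCK, 1 higher and a median of -1.54. Fcgr3, an activating Fc receptor, had 9.70, 9.80, 15.1, 10.2 and 12.2 in PanCK and 36.5, 39.6, 67.6, 36.9 and 78.0 in IBA1 segments (-2.11, SE 0.16). The lysosomal membrane protein Laptm5 (-2.10, SE 0.14), the adaptor Tyrobp (-2.02, SE 0.14) and Mertk, a receptor for apoptotic cells (-1.94, SE 0.20), were lower in PanCK without overlap. The gene that ran the other way was Mfge8, a bridging protein between apoptotic cells and phagocytes, at 42.0, 37.8, 58.5, 33.5 and 50.4 in PanCK and 19.15, 12.1, 23.0, 18.6 and 12.0 in IBA1 segments (1.29, SE 0.16), named after its values were seen. Gas6, a ligand of Mertk, was not called (-0.10, SE 0.13).

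Of 20 lysosomal genes 16 were lower in PanCK and the median was -1.17. Lgmn, an asparaginyl protease, had a log2 fold change of -2.01 (SE 0.14), Psap, the saposin precursor, -1.86 (SE 0.11), the proton pump subunit Atp6v0d2 -1.67 (SE 0.26) and cathepsin D, Ctsd, -1.66 (SE 0.12). The tetraspanin Cd9 was higher in PanCK (1.08, SE 0.14) and was named after its values were seen. It stands in the list of recruited and lipid-associated macrophages too, in which 7 of 10 measured genes were lower in PanCK and the median was -1.19. Within that list, Trem2, a lipid-binding receptor of such cells, had 8.48, 8.40, 6.85, 9.59 and 8.40 in PanCK against 46.3, 37.2, 52.5, 20.8 and 47.3 in IBA1 segments (-2.07, SE 0.18). Lgals3 had -2.24 (SE 0.15) and the elastase Mmp12 -2.10 (SE 0.20). Every IBA1 value of Trem2 lay above every PanCK value, with the lowest in ROI 035.

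Markers of resident Kupffer cells were low and differed less. Of 8 only Cd5l (-0.95, SE 0.23), Clec4f (-0.92, SE 0.26) and Slc40a1 (-0.83, SE 0.20) were called, and the median was -0.61. Clec4f, a lectin restricted to Kupffer cells, had 5.25, 7.00, 3.65, 4.73 and 2.10 in PanCK and 11.7, 9.70, 3.94, 6.74 and 14.3 in IBA1 segments, and the groups overlapped. It was not called without ROI 032 (adjusted p = 0.0586) or ROI 036 (0.167). Timd4 and Vsig4, which also define Kupffer cells, were at 1.62 to 8.52 and 0.66 to 12.0 in IBA1 segments and were not called. Without ROI 036, 1 of the 8 remained called.

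Among antigen presentation genes, the class II genes H2-Aa (-2.17, SE 0.13), H2-Ab1 (-1.86, SE 0.12), H2-Eb1 (-1.70, SE 0.14) and the invariant chain Cd74 were lower in PanCK. Cd74 had 107, 111, 168, 62.2 and 172 in PanCK and 378, 512, 590, 287 and 515 in IBA1 segments (-1.92, SE 0.11, adjusted p = 6.92e-28). The class I genes did not move together. The heavy chain H2-K1 was higher in PanCK in each ROI (0.66, SE 0.12, adjusted p = 6.99e-06), as was the class I loading factor Tapbp (0.56, SE 0.18, adjusted p = 0.018). Both were named after their values were seen, and Tapbp was not called without ROI 035 (adjusted p = 0.188). The class I light chain B2m, also named after its values were seen, was lower in PanCK (-0.34, SE 0.11, adjusted p = 0.0166), and the heavy chain H2-D1 was not called (-0.10, SE 0.12). In all, 8 of 16 genes were lower and 2 higher, with a median of -0.36.

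Matrix genes lay on the IBA1 side. Of 23 measured 16 were lower in PanCK and 2 were higher, Mmp7 and, named after its values were seen, Col18a1, the precursor of endostatin (0.45, SE 0.16, adjusted p = 0.0407). Col18a1 was not called without ROI 035 (adjusted p = 0.0965). The fibrillar chain Col5a2 (-1.82, SE 0.18), Col6a1 (-1.78, SE 0.18) and vimentin, Vim (-1.78, SE 0.14), did not overlap between segments. Among fibroblast markers, Dcn (decorin) had a log2 fold change of -2.18 (SE 0.13) and Mgp (matrix Gla protein) -2.24 (SE 0.14). Of the fibroblast markers 9 of 12 were lower, as given above, Des, Lrat and Reln were not called, and the part of fibroblasts in the matrix genes was not tested.

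Of 24 genes for ductular growth signals 10 were higher in PanCK, 5 were lower, 9 were not called, and the median was 0.48. Besides Cd24a, the hyaluronan receptor Cd44 had 42.8, 37.1, 51.15, 31.9 and 59.2 in PanCK against 12.4, 17.8, 18.4, 13.3 and 19.5 in IBA1 segments (1.43, SE 0.16). Jag1, a Notch ligand, had 1.34 (SE 0.23). Pdgfrb, the receptor of stellate cells, was lower in PanCK (-1.75, SE 0.22). Its PanCK value in ROI 033 was 0.70, which is 1 count.

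Of 19 genes for bile transport and the cholangiocyte cilium 6 were higher in PanCK, 1 was lower and the median was 0.46. The sodium pump subunit Atp1b1 led them at 107, 104, 62.1, 32.4 and 72.7 in PanCK against 19.8, 13.7, 7.22, 8.92 and 8.25 in IBA1 segments (2.55, SE 0.16). The mucin Muc1 (1.997, SE 0.21), the biliary transcription factor Onecut1 (1.49, SE 0.19) and the secretin receptor Sctr (1.21, SE 0.26) followed. Aqp1, a water channel of bile ducts and of endothelium, was the 1 lower (-0.61, SE 0.22, adjusted p = 0.0446) and was not called without ROI 035 (adjusted p = 0.329); it is named after its values were seen.

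Of 20 genes of death receptors and apoptosis 3 were called, a share near the 13.6% called over all genes, and the median was 0.15. All 3 were higher in PanCK, where 6.54% of all genes were called higher. The anti-apoptotic Bcl2l1 had 16.2, 17.5, 15.1, 16.3 and 14.3 in PanCK and 10.5, 6.46, 8.54, 8.13 and 6.002 in IBA1 segments (0.98, SE 0.21, adjusted p = 0.000133). The caspase inhibitor Birc2 was called at 0.88 (SE 0.23, adjusted p = 0.00389) with the PanCK segment lower in ROI 033, and lost its call without ROI 034 (adjusted p = 0.0839). Tnfrsf10b, the mouse TRAIL receptor, had 8.08, 7.00, 4.11, 9.72 and 5.46 in PanCK and 3.71, 1.62, 2.63, 7.73 and 0.75 in IBA1 segments. It was higher in PanCK in 5 of 5 ROIs with overlap between the groups (0.78, SE 0.27, adjusted p = 0.0389). Without any 1 of ROIs 032, 033, 034 and 036 it was not called, and without ROI 035 it was (1.42, SE 0.42, adjusted p = 0.00799). At 1 to 74 counts per segment, its level is low. In ROI 035, where it had 9.72 and 7.73, the negative probe was at 5.66 and 5.51 on the same scale. In the IBA1 segments of ROIs 033 and 036, at 1.62 and 0.75, it lay under the negative probe (2.62 and 1.69).

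Among heme and iron genes 6 of 21 were lower in PanCK and none was higher, with a median of -0.14. The ferritin chains Ftl1 (-1.18, SE 0.11) and Fth1 (-1.02, SE 0.11), the heme-degrading enzyme Hmox1 (-1.54, SE 0.18) and the phagosomal metal transporter Slc11a1 (-1.55, SE 0.20) led. Fech, the ferrochelatase whose inhibition causes the porphyrin plugs under DDC, was not called (0.10, SE 0.21). Of 16 proliferation genes 3 were called, a share near the 13.6% called over all genes. All 3 were higher in PanCK, where 6.54% of all genes were called higher. They were Ccnd1 (cyclin D1, 1.41, SE 0.18), Stmn1 (stathmin, 0.92, SE 0.20) and Cdk4 (0.47, SE 0.17), and Mki67 was not called (0.24, SE 0.23). Cdk4 lost its call without ROI 032 (adjusted p = 0.228), ROI 033 (0.116), ROI 035 (0.167) or ROI 036 (0.0604). Among markers of other cells, Eng (-0.96, SE 0.19) and Cdh5 (-0.73, SE 0.25) of 8 endothelial genes and Irf8 (-1.36, SE 0.22) of 4 dendritic cell genes were lower in PanCK. Cdh5 lost its call without ROI 032 (adjusted p = 0.33), ROI 034 (0.0947) or ROI 036 (0.0547).

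Immunoglobulin genes were carried by 1 segment. Igha, the heavy chain of IgA, had 3.71, 4.85, 12.5, 6.14 and 822 in IBA1 segments, Igkc had 4.94, 25.9, 17.7, 7.135 and 611, and Jchain 3.09, 8.89, 3.28, 5.95 and 134. The highest PanCK value of the 3 genes was 13.45, for Igha. All 3 high values were in the IBA1 segment of ROI 036. Over 5 ROIs the log2 fold changes were -2.85 (SE 0.39) for Igha, -3.24 (SE 0.31) for Igkc and -1.59 (SE 0.31) for Jchain. Without ROI 036 Igha (-0.37, adjusted p = 0.543) and Jchain (0.07, adjusted p = 0.945) were not called, and only Igkc was (-1.42, adjusted p = 2.89e-05).

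**Figure D3:**
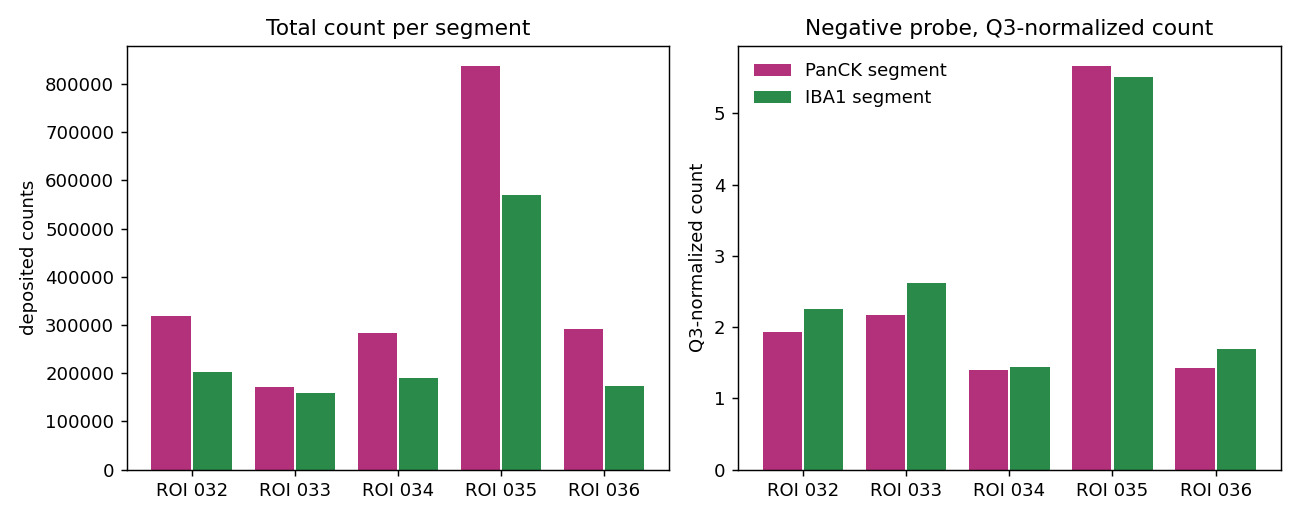
Total count (left) and Q3-normalized count of the negative probe (right) in the PanCK (magenta) and IBA1 (green) segment of each ROI. ROI 035 has the highest total and the highest negative probe level in both segments, 5.66 and 5.51 against 1.397 to 2.62 elsewhere.

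ROI 035 stood apart from the other 4 ROIs in depth and in background. Its segments held 836971 and 568719 counts, against 172180 to 319206 in the other PanCK and 158219 to 202900 in the other IBA1 segments. The negative probe, which has no target in the mouse transcriptome, was at 5.66 and 5.51 in the PanCK and IBA1 segments of ROI 035 on the Q3 scale and at 1.397 to 2.62 in the other 8 segments. Per 100000 counts it was 5.15 and 4.89 against 1.08 to 2.05.

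The PanCK to IBA1 contrast was smaller in ROI 035. Over the 5255 genes that averaged at least 20 counts, the SD of its log2 ratios was 0.489, and in the other ROIs 0.834 to 0.974. The least-squares slope of its ratios on the mean ratio of the other ROIs was 0.486, where the slope of each other ROI on its own remainder was 0.836 to 1.12. Thinning all 10 segments to the smallest total of 158219 left the slope of ROI 035 at 0.492, against 0.764 to 1.04 for the others. The SD of its ratios rose to 0.695 on thinning, still below the 0.843 to 0.977 of the others. Subtracting each segment's negative probe count from every gene, an alternative chosen after seeing the data, moved the slope to 0.869, among 0.767 to 0.880 for the other ROIs. The SD of the ratios of ROI 035 was then 1.25, the highest of the 5 ROIs, where the others had 1.06 to 1.22. For 274 abundant genes, at 100 counts or more on average, the slope was 0.805 before and 0.975 after the subtraction.

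**Figure D4:**
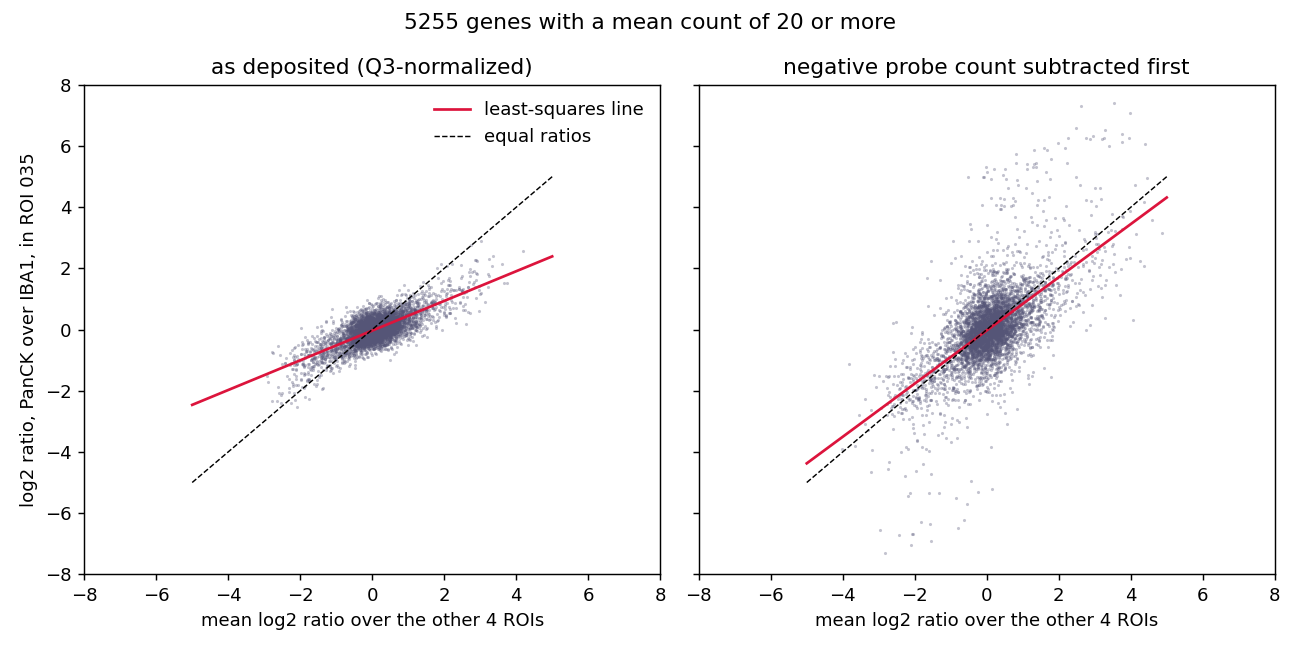
Log2 ratio of PanCK over IBA1 in ROI 035 against the mean log2 ratio of the other 4 ROIs, for 5255 genes, before (left) and after (right) the negative probe count was subtracted. The least-squares line (red) has a slope of 0.486 on the left and 0.869 on the right; the dashed line marks equal ratios, and points fan out on the right where few counts remain.

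The fold changes of several named genes depended on ROI 035. Efemp1, a matrix glycoprotein, had 19.4, 18.2, 21.5, 15.1 and 19.3 in PanCK and 2.47, 2.42, 3.28, 13.3 and 5.25 in IBA1 segments. The IBA1 value in ROI 035 was the one out of place, and the log2 fold change went from 1.398 to 2.53 without that ROI. Itgb6, an epithelial integrin chain (1.82 to 2.90), the sphingolipid enzyme Degs2 (0.81 to 1.92) and the RNA-binding Mex3a (1.27 to 2.30) moved likewise, and Boc, a hedgehog co-receptor, moved down (-0.96 to -1.98). Degs2 lost its call without ROI 032, 033, 034 or 036. Igha, Jchain and Igkc also moved down, to -4.35, -2.78 and -4.30, at mean counts of 126, 32.3 and 100.2, and these are the genes with 1 high segment in ROI 036. Values moved little for Spp1 (2.75 with and 2.75 without), Krt8 (1.798 and 1.83) and C1qa (-2.53 and -2.60).

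Leaving ROI 035 out raised the number of genes called from 1438 to 1566, although 1 pair fewer was tested. Of the 1438 genes 1266 were called in both with the same direction, 172 were lost and 300 were gained, and no called gene changed sign. Among the 1438, 1223 lay further from 0 without ROI 035, and their median absolute log2 fold change was 1.14 against 0.90 with it. Leaving out another ROI gave 1110 (ROI 032), 1249 (ROI 033), 1174 (ROI 034) and 1071 (ROI 036) called genes. With the negative probe subtracted and all 5 ROIs kept, 1361 were called, of which 1325 were among the 1438. Without ROI 035 the counts stayed at 12 cholangiocyte markers, 18 junction genes, 11 lower macrophage markers and 22 lower phagocytosis genes, while the medians of these lists moved outward, to 2.56, 1.79, -1.99 and -1.80. The counts of other lists changed. Bile transport and cilium genes went from 6 higher and 1 lower to 9 and 0, ductular growth signals from 10 to 12 higher, Kupffer cell markers from 3 to 4 lower and dendritic cell markers from 1 to 2 lower, while proliferation genes went from 3 to 2 higher.

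The same contrast was then set against that of other ROIs in 1 model of all 15 periportal ROIs with both segments, 30 segments in all. ROIs 003 and 005 of control diet-fed WT mice were in this model but in neither comparison. Periportal segments of groups other than DDC-fed Trail.mye were mostly shallower, at 20319 to 220381 counts. Against DDC-fed WT ROIs, no gene's PanCK to IBA1 difference differed at an adjusted p under 0.05 (edgeR), and 341 of 10547 did at an unadjusted p under 0.05. TMM factors and DESeq2 each called 5 genes. Spp1 differed by 0.01 (SE 0.28), Mmp7 by -0.26 (SE 0.62), Ccl2 by -0.46 (SE 0.72), C1qa by -0.81 (SE 0.38) and Col3a1 by -0.72 (SE 0.29), none of them past the threshold. The 8 WT segments held 20319 to 61665 counts, and a p above the threshold does not show that the groups are alike.

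Against control diet-fed Trail.mye ROIs, the PanCK to IBA1 difference differed for 133 genes (1.26%), 105 with a more positive and 28 with a more negative log2 fold change under DDC. With TMM factors, which shifted the median by -0.20, the split was 35 to 46, so that the direction of the total depends on the scaling. Thinned to the smallest total, 7 genes were called, and without the control ROI 028 it was 44. Of the genes named here 3, Spp1, Cd44 and Col3a1, were called in each of the 23 alternatives run.

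Spp1 was PanCK-restricted on the control diet and less so under DDC. Control PanCK segments had 480, 441, 554 and 653 and control IBA1 segments 8.75, 3.94, 7.22 and 11.8. The IBA1 segments of DDC-fed mice, at 50.1 to 187, were all above these, and the log2 fold change was 2.75 here against 6.10 on the control diet (difference -3.35, SE 0.38, adjusted p = 4.17e-09). Control segments held few counts of many genes, since 1 count there equals 0.66 to 3.50 on the Q3 scale.

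Cd44 was higher in PanCK segments under DDC and not on the control diet. Control PanCK segments had 3.50, 5.25, 15.8 and 4.20 and control IBA1 segments 14.0, 19.7, 17.7 and 14.4, and the log2 fold change there, -1.15, was not called (adjusted p = 0.153). Under DDC it was 1.42 (difference 2.57, SE 0.45, adjusted p = 0.000359).

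Of 21 keratin and junction genes 3 differed, the claudins Cldn2 (2.57, SE 0.63), Cldn3 (1.76, SE 0.42) and Cldn4 (2.70, SE 0.71, adjusted p = 0.0328). Cldn4 was at 2.63 to 7.00 in control PanCK and 1.97 to 8.75 in control IBA1 segments, Cldn2 at 2.63 to 7.88 and 1.75 to 7.88, and Cldn3 at 14.0 to 27.3 and 10.5 to 15.8. These are few counts, and with TMM factors only Cldn2 was called (adjusted p = 0.0496), while Cldn3 (0.051) and Cldn4 (0.062) were not. Without ROI 028 none of the 3 was called. Il1rn, the interleukin 1 receptor antagonist, had a difference of 2.89 (SE 0.64), where each of the 4 control PanCK segments was at 1 count, so that the fitted value there is no measured level.

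Of 12 fibroblast and stellate cell markers 4 differed, all with a more negative value under DDC, and the list's median difference was -1.57 against 0.15 over all genes. Col3a1 was at 15.8 to 57.8 in control IBA1 and at 21.0 to 52.5 in control PanCK segments, with a log2 fold change of -0.03 there against -2.25 here (difference -2.22, SE 0.38, adjusted p = 0.000251). Under DDC its IBA1 segments reached 232 to 603. The others were Mgp (-2.25, SE 0.44), Col1a1 (-1.92, SE 0.53) and Dcn (-1.69, SE 0.36), at 3.50 to 58.4, 1.75 to 44.6 and 29.8 to 56.5 in control IBA1 segments. The same 4 were called with TMM factors, and Col3a1 and Dcn without ROI 028. Col1a1 lay close to the threshold (adjusted p = 0.0479) and was called in 13 of 23 alternatives. Without ROI 029 neither Col1a1 (adjusted p = 0.25) nor Dcn (0.09) was called. The stellate cell receptor Pdgfrb did not pass (-2.09, adjusted p = 0.144). Fbln1 (-2.77, SE 0.50), Htra3 (-2.51, SE 0.56) and Gpx3 (-2.64, SE 0.58), in none of the marker lists, also differed, at 1.75 to 11.8, 1.75 to 9.19 and 7.00 to 13.1 in control IBA1 segments. Without the control ROI 029 Htra3 (adjusted p = 0.409) and Gpx3 (0.351) were not called. Thinned to the smallest total, Fbln1, Htra3, Gpx3 and Col1a1 were not called, while Col3a1, Mgp and Dcn were.

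Of 8 Kupffer cell markers 3 differed, all with a less negative value under DDC, and the median difference was 1.68. Clec4f was at 121, 105, 142.5 and 72.2 in control IBA1 segments against 3.94 to 14.3 in those of DDC-fed mice, and the log2 fold change went from -3.75 to -0.92 (difference 2.83, SE 0.49, adjusted p = 0.000251). Cd5l (2.20, SE 0.47) was at 61.3 to 93.2 in control IBA1 segments and Slc40a1 (1.57, SE 0.42) at 39.4 to 55.8. Slc40a1 was called in only 8 of 23 alternatives. Among others, it was not called with TMM factors (adjusted p = 0.13), without ROI 028 or without ROI 029 (0.247).

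Hepatocyte markers differed as well. Of 11 measured 7 had a called difference, all above 0, with a list median of 1.15, and their summed level was 11060 to 15160 in control IBA1 and 3377 to 8599 in control PanCK segments. With TMM factors 2 of them were called and without ROI 028 only Ass1, a urea cycle enzyme (1.57, SE 0.29), which was at 195 to 317 in control IBA1 segments. The part of hepatocytes in the other differences was not tested. Hbb-b2, a hemoglobin chain, was called at 2.74 (SE 0.62), but 1 control IBA1 segment, in ROI 028, had 85.4 where the other 3 had 1.31 to 5.25, and without it the difference was -0.14 (adjusted p = 0.999).

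**Figure D5:**
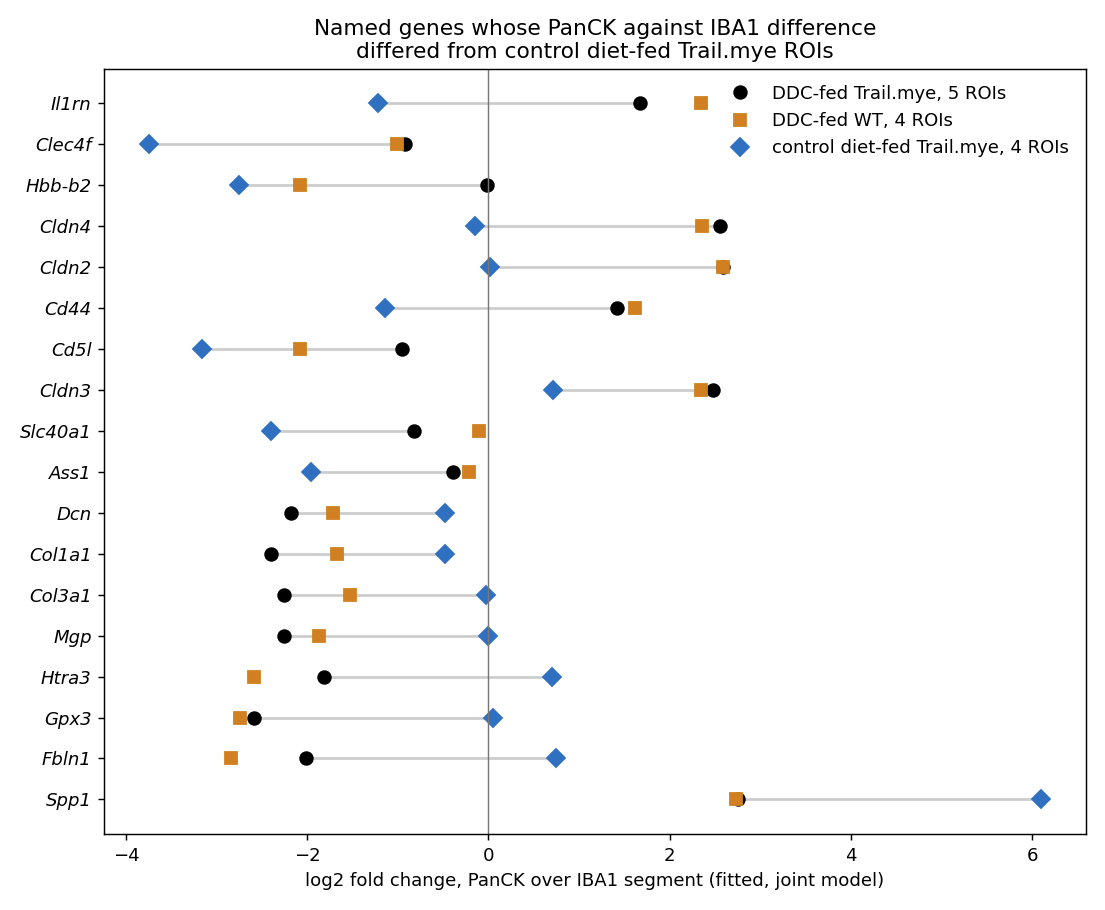
Fitted log2 fold change, PanCK over IBA1, of the 18 named genes whose contrast differed from that of control diet-fed Trail.mye ROIs, in DDC-fed Trail.mye (circles, 5 ROIs), DDC-fed WT (squares, 4 ROIs) and control diet-fed Trail.mye (diamonds, 4 ROIs); no error bars are drawn. For Spp1 the control value of 6.10 lies far to the right of the DDC values of 2.75 and 2.74.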

How the data were processed

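Segments of formalin-fixed mouse liver were profiled on the GeoMx DSP with the mouse Whole Transcriptome Atlas, in ROIs placed around the ductular reaction and segmented on PanCK and IBA1. Per the labels, libraries were made with 18 cycles of PCR. The authors filtered targets on the limit of quantification, and the submitters' processing notes name bcl2fastq and mm10; aligner and deduplication settings are, in the sources used here, not given. The expected counts are used as the authors deposited them, per target and segment, with 3 genes rounded, and the lowest value is 1. The signal values are the deposited Q3-normalized counts. No column of another sample was present. The gene deleted in Trail.mye mice is not reported here.

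The fit was edgeR 4.0.16 (quasi-likelihood, two-sided, upper-quartile factors at the 75th percentile, ROI block, residual df 4; joint model of 15 ROIs, residual df 11) in R 4.3.3, over 10547 genes without a filter and without the negative probe, with Benjamini-Hochberg adjustment. The SE is the log2 fold change over the root of F. The fit was tested on simulated counts. Counting intervals were not used, since PCR reads need not be independent molecules. The ROI number pairs the segments, since both were cut from the same ROI. Their deviations from the group means, which include ROI 035, correlated at 0.521 in ROI 035 and at 0.116 to 0.213 in the other ROIs. In the paired ROIs of the other groups the correlation was -0.0116 to 0.0746. limma 3.58.1, DESeq2 1.42.0 and the other alternatives stand in the closing section. Plots used Python 3.11.15 and matplotlib 3.10.9. Of the genes, 10512 matched a RefSeq symbol.

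Named genes are the 10 highest and lowest called without overlap at a mean count of 10 or more, up to 4 called members per list and members that define a cell type, the genes the study names for these data, the gate genes, the 4 highest and lowest of each difference between groups and the 4 that ROI 035 moved most each way. These choices and the lists were made with earlier results of these data known.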

Additional observations from a re-analysis of the deposited data

Results flagged for a closer look

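In groups of 5 ROIs a value was marked where its gap to the nearest other exceeded 0.71 of the range, which chance gives for about 1 in 20 quantities; 9 of 103 quantities were marked, 6 of them in ROI 035. These were its PanCK total (836971) and IBA1 total (568719), its negative probe per 100000 counts (5.15 in PanCK, 4.89 in IBA1), the SD of its log2 ratios (0.489) and the log2 ratio of Scara3 (1.51, against 3.52 to 3.98 in the other ROIs). The others were the log2 ratios of Igha in ROI 036 (-5.93, against -1.60 to 0.12), Pdgfrb in ROI 033 (-4.11, where the PanCK segment had 1 count) and Csf2ra in ROI 032 (-2.45, against -1.22 to -0.80). Among the 97 named genes 4 were marked, which is near the share that chance gives. The remaining marks were depth, background and ratio spread of ROI 035, which are not independent of each other. Some genes were also named because ROI 035 moved them.

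For 18 named genes the PanCK to IBA1 log2 fold change differed between DDC-fed and control diet-fed Trail.mye ROIs by the test of the difference. It was more positive under DDC for Il1rn (2.89), Clec4f (2.83), Hbb-b2 (2.74), Cldn4 (2.70), Cldn2 (2.57), Cd44 (2.57), Cd5l (2.20), Cldn3 (1.76), Slc40a1 (1.57) and Ass1 (1.57). It was more negative for Spp1 (-3.35), Fbln1 (-2.77), Gpx3 (-2.64), Htra3 (-2.51), Mgp (-2.25), Col3a1 (-2.22), Col1a1 (-1.92) and Dcn (-1.69). Of the 18, 17 kept their sign in each of 23 alternatives, the exception being Hbb-b2, and 5 (Spp1, Cd44, Col3a1, Dcn and Mgp) were called at the smallest total.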

How the results depend on the processing

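Against 1438 genes called, DESeq2 called 839 and the methods' unpaired test on log2 Q3 values 580 after adjustment, or 803 at an unadjusted p under 0.05 with a log2 fold change beyond 1. Without the replicate block, which pairs the segments of an ROI, 1012 were called, of which 1011 were among the 1438. Leaving out 1 ROI gave 1071 to 1566. Against DDC-fed WT ROIs, where 0 were called, TMM factors gave 5 (H2ac18, H2bc11, Igfbp7, Myl6, Tmem176a), DESeq2 gave 5 (Actb, Igfbp7, Myl6, Tmem176a, Ubb) and leaving out 1 ROI 0 to 1 (H3c1 without ROI 011, Abcd2 without ROI 034), all named after their values were seen. Against control diet-fed Trail.mye ROIs, where 133 were called, TMM factors gave 81, DESeq2 80, limma on log2(Q3-normalized count + 1) 35, no replicate block 31, thinning 7 and counts of 1 set to 0 81. Leaving out 1 ROI gave 44 to 154, with 57 without ROI 027, 44 without ROI 028, 86 without ROI 029, 76 without ROI 032 and 52 without ROI 034. The cause was not tested. Of 97 named genes 69 kept their side of the threshold and direction in each of the alternatives, up to 16 per gene, 24 called genes lost the call in some, and Tnf, not called, was called without ROI 033 and with all 15 paired ROIs in 1 fit. Signs turned without 1 ROI for Jchain (-2.7791 to 0.0721, above 0 without ROI 036), Cx3cl1 (-0.0945 to 0.1784, below 0 without ROI 036) and Hbb-b2 (-0.2415 to 0.201, above 0 without ROI 032, 033 or 034), when thinned for Cx3cl1 (-0.1297), S100a8 (0.0374) and Hbb-b2 (0.1362), and for Hbb-b2 in the unpaired test (0.0136) and with the negative probe subtracted (0.1656). The total counts limit low genes, since 1 count is 0.13 to 0.81 on the Q3 scale here. The negative probe was higher on that scale, at 1.397 to 2.62 outside ROI 035 and at 5.66 and 5.51 in its segments. Values at or under the negative probe cannot be told apart from background.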
